A study of Mus musculus with 6 samples.

Results

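The 7 genes described here encode proteins that hold germinal center (GC) B cells inside the GC or place them between its zones: S1pr2, Gna13, Arhgef1 and Rhoa of the confinement pathway, and Cxcr4, Cxcr5 and Gnai2 of zone positioning. They were chosen by name from the 27179 genes of the count table, whose Entrez identifiers were matched to mouse symbols, and all 7 were among the 11005 genes tested. The data were RNA-seq counts from 6 libraries of splenic GC B cells. On days 7, 10 and 14 after intraperitoneal NP-KLH, a hapten on a carrier protein, in alum, 1 library came from wild-type (WT) and 1 from IL-21 receptor deficient (Il21r-/-) mice. The background strain of every library was C57BL/6. The sorted cells bound NP, carried surface IgG1 and B220 and lacked CD38, CD138, IgM, IgD and Gr1. By these gates all libraries come from class-switched cells of both zones together. The labels call each library an independent mouse, whereas the sort on day 7 is described with 3 mice of each genotype and the methods give several mice per genotype over all days, so the sources differ on the mice behind a library. The methods state for all experiments but a thymidine analog time course that irradiated recipients were reconstituted with WT or Il21r-/- bone marrow, in which case the mutation is carried by donor-derived blood cells, not by B cells alone. They give a range of ages for the whole study and not the age behind a library.

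Sphingosine-1-phosphate (S1P) is low within follicles and higher around them. The receptor S1PR2 couples to Gα13, which through the exchange factor ARHGEF1 activates the GTPase RhoA and restrains migration and Akt signalling, and GC B cells without Gα13 can leave the follicle and spread, while loss of S1PR2 alone disturbs their clustering in the GC. The chemokine receptor CXCR4 draws cells to the CXCL12-rich dark zone (DZ), CXCR5 responds to CXCL13 of the light zone (LZ) and follicle, and both signal through Gαi proteins, of which Gαi2 is the main one in lymphocytes.

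The loci of S1pr2 (chr9:20965952-20976793), Rhoa (chr9:108306160-108337943), Cxcr5 (chr9:44511787-44526444) and Gnai2 (chr9:107614125-107635391) lie on chromosome 9 of mm10, the build of the counts. Gna13 lies at chr11:109362794-109401369, Cxcr4 at chr1:128588199-128592299, and Arhgef1 at chr7:24902986-24926594, on the chromosome of Il21r but far from it (chr7:125603252-125634397). All 7 are protein-coding, and the values count reads over the exons of a whole gene. The positions of Gna13 and Cxcr5 overlap those of a long noncoding RNA gene (Gm11696, 162 to 250 counts a library) and of Bcl9l (344 to 715 counts), both of which had far fewer counts than the members. How the counting treated strand is not given in the sources used here.

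RefSeq promoter sequence (GRCm38.p6, the assembly of mm10) was on hand for 5 of the 7 members, and is shown for the member with the largest genotype difference and for the member whose own values were highest on day 14 in both genotypes. These are the 250 bases before the annotated start, 5′ to 3′ on the gene's strand, with matches to any of 4 motifs in capitals.
S1pr2, chr9:20976794-20977043, minus strand: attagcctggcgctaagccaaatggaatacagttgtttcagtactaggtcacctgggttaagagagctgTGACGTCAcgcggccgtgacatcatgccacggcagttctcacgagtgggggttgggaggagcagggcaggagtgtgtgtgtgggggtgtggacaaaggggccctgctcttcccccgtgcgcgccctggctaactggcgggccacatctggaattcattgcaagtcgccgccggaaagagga
Cxcr4, chr1:128592300-128592549, minus strand: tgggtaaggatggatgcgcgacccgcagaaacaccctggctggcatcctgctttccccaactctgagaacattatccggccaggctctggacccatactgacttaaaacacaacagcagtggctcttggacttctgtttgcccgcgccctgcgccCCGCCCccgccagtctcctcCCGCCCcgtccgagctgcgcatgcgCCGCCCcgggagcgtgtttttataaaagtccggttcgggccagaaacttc
The motifs, searched on both strands, were the STAT site TTCNNNGAA, which STAT3 downstream of the IL-21 receptor can bind, the cyclic AMP response element TGACGTCA, the FOXO site TGTTTAC and the GC box GGGCGG. S1pr2 held 1 cyclic AMP response element and no other match, and Cxcr4 held 3 GC boxes. No window of the 5 members held the STAT letters, which occur in 7.02% of the 32851 RefSeq windows of this length. The cyclic AMP response element occurs in 1.55% of them, the FOXO site in 3.17% and the GC box in 32.7%. A match is a description of letters and no evidence of binding.

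The deposited counts summed to between 21353438 and 27435124 a library. Values below are CPM, counts scaled to library size, after TMM normalization, a scaling for library composition, or, where genes are compared with each other, RPKM, which also divides by gene length. The GC B cell genes Bcl6, Fas and Mef2b each had at least 3429 counts in every library. Bcl6 (78.2% to 92.3% of WT) and Mef2b (71.4% to 87.5%) were lower in Il21r-/- on each day, and Fas (107% to 125%) was higher. The 10 T cell markers summed to 2.15 to 3.22 CPM in WT and 2.69 to 4.19 CPM in Il21r-/-, with 0 to 2 counts of Cd3e and 0 of Il21, and with Thy1 (14 to 67 counts) higher in Il21r-/- on each day but not called (log2 fold change WT minus Il21r-/- -0.63, adjusted p = 0.211, edgeR). The 5 follicular dendritic and stromal markers measured summed to 4.64 to 6.08 CPM in WT and 7.81 to 8.82 CPM in Il21r-/-, with 0 counts of Cxcl13. Nearly all of these sums was Mfge8 (97 to 213 counts), and each of the others had at most 7 counts in a library. Mfge8 was called higher in Il21r-/- (-0.72, adjusted p = 0.0419, edgeR). The part of either list in the results below was not tested. Il21r was lower in each Il21r-/- library than in the WT library of that day, at 30.6%, 48.5% and 45.7% of WT on days 7, 10 and 14. With 1 library per genotype and day, differences are measured against the spread around an additive model of genotype and day, a biological coefficient of variation of 13.1%, and p-values may reflect technical spread. In RNA from a sorted population, fewer cells of a type and less RNA per cell cannot be told apart.

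All 7 genes were well expressed. Per length, Gnai2 (523 ± 86.9 RPKM, SD over the 6 libraries) and Rhoa (509 ± 39.3) were the highest and their ranges overlapped. S1pr2 followed at 182 ± 24.4 RPKM, Cxcr4 at 174 ± 30.7 and Cxcr5 at 131 ± 28.2, each overlapping its neighbour in this order. Arhgef1 (86.0 ± 10.2 RPKM) and Gna13 (44.5 ± 3.23) were lowest, and Gna13 stayed below all values of Arhgef1.

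**Figure D1:**
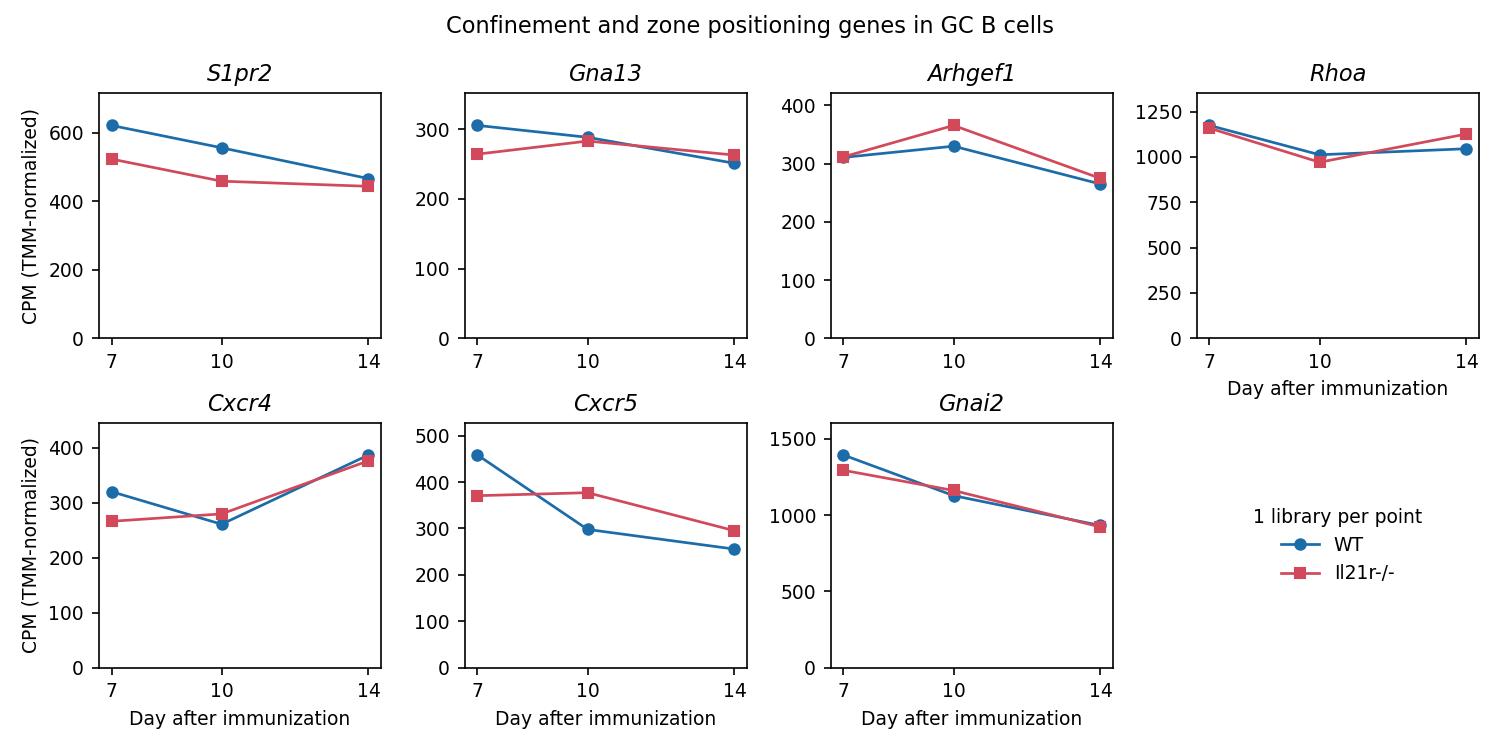
TMM-normalized CPM (y axis, from 0) of the 7 members against day after immunization, with 1 library per point, WT as blue circles and Il21r-/- as red squares. The ranges of the genotypes overlap for every gene, Gnai2 falls from day to day in both, and Cxcr4 is highest on day 14 in both.

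The first comparison asked whether the RNA of these genes depends on the IL-21 receptor. S1pr2, the receptor that confines GC B cells, had 621, 555 and 466 CPM in WT on days 7, 10 and 14, and 523, 458 and 443 CPM in Il21r-/-. WT was higher on each day, but the day 7 value of Il21r-/- exceeded the day 14 value of WT, so the genotype groups overlapped. Il21r-/- reached 84.2%, 82.5% and 95.2% of WT on the 3 days. Over the 3 days the log2 fold change, here always WT minus Il21r-/-, was 0.20 (SE 0.096, 95% interval -0.02 to 0.42, adjusted p = 0.280 by edgeR's quasi-likelihood test). When the 2 libraries of each day were paired by a day block, it was again 0.20 with a smaller error (interval 0.05 to 0.35, adjusted p = 0.0504), still short of the threshold of 0.05.

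Gna13, the G protein downstream of S1PR2, had 305, 288 and 251 CPM in WT and 264, 283 and 263 in Il21r-/- on days 7, 10 and 14. The higher genotype changed from day 7 to day 14, and the log2 fold change was 0.06 (interval -0.17 to 0.28). Arhgef1, the RhoA activator, had 311, 330 and 265 CPM in WT and 312, 366 and 275 in Il21r-/-, with Il21r-/- slightly above WT on each day (-0.07, interval -0.34 to 0.20). Rhoa had 1174, 1012 and 1045 CPM in WT and 1159, 971 and 1126 in Il21r-/- (-0.01, interval -0.28 to 0.25). For these 3 genes the groups overlapped and adjusted p-values lay between 0.778 and 0.967.

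Cxcr4, the dark zone receptor, had 320, 261 and 387 CPM in WT and 266, 280 and 376 in Il21r-/- on days 7, 10 and 14, with a log2 fold change of 0.08 (interval -0.22 to 0.38). WT was higher on days 7 and 14 and lower on day 10. Cxcr5, the follicle and light zone receptor, had 458, 298 and 256 CPM in WT and 371, 377 and 295 in Il21r-/- (-0.08, interval -0.37 to 0.22). WT was the higher genotype on day 7 and the lower on days 10 and 14. Gnai2 had 1393, 1127 and 932 CPM in WT and 1293, 1161 and 922 in Il21r-/- (0.03, interval -0.20 to 0.26), and the groups overlapped for all 3 genes.

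None of the 7 members passed the test over 3 days, against 5.92% of all genes tested (651 of 11005), and 0 of 7 had an unadjusted p under 0.05. DESeq2 called 0 as well. Their median log2 fold change was 0.03, beside -0.01 over all genes, and their median absolute log2 fold change was 0.07, beside 0.16 over all genes. By day the latter was 0.21 beside 0.17 on day 7, 0.10 beside 0.20 on day 10 and 0.07 beside 0.22 on day 14. The members are well expressed, and the genes beside them were not matched for level. With day as a block 0 of 7 passed where 22.9% of all genes did (2519 of 11005), and S1pr2 alone had an unadjusted p under 0.05. WT and Il21r-/- libraries overlapped for all 7 members, while they did not for 18.4% of all genes tested. A p that misses the threshold does not show equal expression, and the intervals leave room for log2 differences of up to 0.42.

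Tested day by day with edgeR's likelihood ratio test, 0 of 7 members passed on day 7 (1.07% of all genes did), on day 10 (3.1%) or on day 14 (3.28%). None of them had a raw p under 0.05 on any day. DESeq2 called 0 on each day. The day 7 log2 fold changes were positive for 6 of 7 members, up to 0.31 for Cxcr5, and Arhgef1 was at -0.0045. On day 10 they ran from -0.34 for Cxcr5 to 0.28 for S1pr2, and on day 14 from -0.21 for Cxcr5 to 0.07 for S1pr2. Each day sets 1 library against 1 library, so its interval is wide, for example -0.18 to 0.79 for Cxcr5 on day 7.

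The second comparison followed the genes from day 7 to day 14 in both genotypes. Gnai2, which relays CXCR4 and CXCR5 signals, was the member that passed the test. Both day 7 libraries (1393 and 1293 CPM) lay above both day 10 libraries (1127 and 1161), which lay above both day 14 libraries (932 and 922), and 4.33% of all genes tested had that order. Day 14 was 0.669 of day 7 in WT and 0.713 in Il21r-/-. The slope was -0.076 log2 units per day (SE 0.018, 95% interval -0.116 to -0.036, adjusted p = 0.0487 by edgeR's quasi-likelihood test). The call was marginal: it was lost with DESeq2-style size factors (adjusted p = 0.0606), with a minimum of 10 counts in every library (0.0576), and without any 1 library other than Il21r-/- day 10 (0.0967 to 0.447).

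Cxcr5 had the steepest slope of the members, -0.085 log2 units per day (SE 0.023, adjusted p = 0.0708), and did not pass. Its day 14 value was 0.558 of day 7 in WT and 0.797 in Il21r-/-, and both day 14 libraries lay below the other 4. It passed with DESeq2 (adjusted p = 0.0148), with all genes of any count kept (0.0205) and without the Il21r-/- day 10 library (0.0122). Cxcr4 had a slope in the other direction, 0.058 per day (interval 0.005 to 0.111, adjusted p = 0.170), and both day 14 libraries lay above the other 4, as in 14.1% of all genes. Both day 14 libraries were the lowest for Cxcr5, Gnai2, Gna13 and Arhgef1, as in 14.3% of all genes.

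S1pr2 had 0.750 of its day 7 value on day 14 in WT and 0.848 in Il21r-/- (slope -0.046, interval -0.084 to -0.008, adjusted p = 0.151). Without the Il21r-/- day 10 library it passed (adjusted p = 0.0384). The slopes of Arhgef1 (-0.033), Gna13 (-0.022) and Rhoa (-0.012) had intervals that reached past 0. In all, 1 of 7 members passed with day, against 4.43% of all genes (488 of 11005), and against 3.36% that fell with day. The unadjusted p was under 0.05 for 4 of 7, namely Gnai2, Cxcr5, S1pr2 and Cxcr4, and for 23.5% of all genes. The day and the sort of that day cannot be told apart, since each day has 1 library of each genotype.

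**Figure D2:**
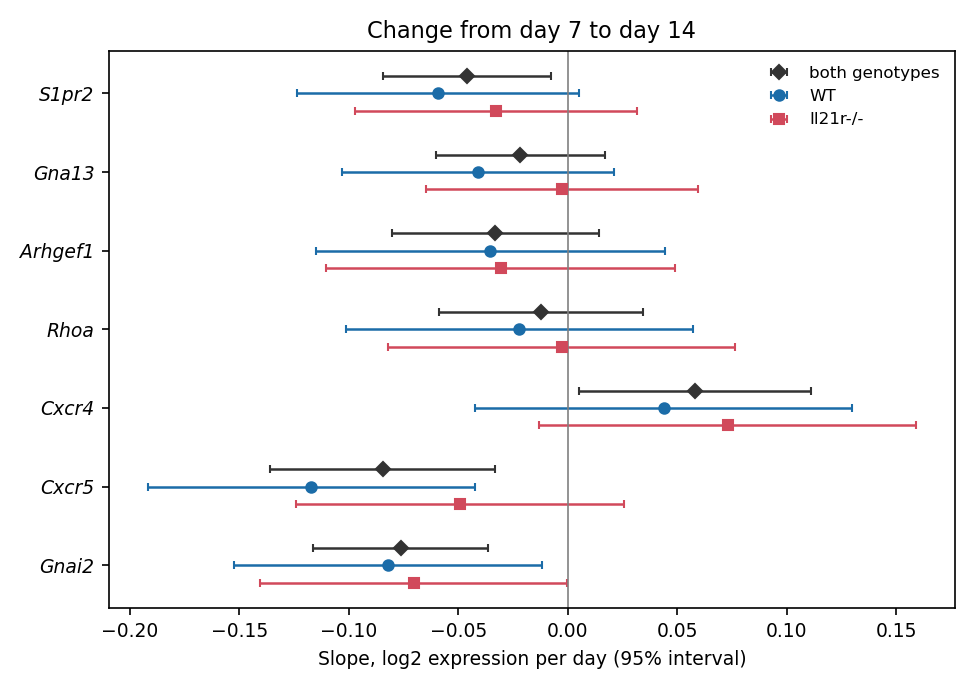
Slope of log2 expression per day (x axis) for the 7 members in both genotypes together (black diamonds), in WT (blue circles) and in Il21r-/- (red squares), with 95% intervals from edgeR's quasi-likelihood fits. Cxcr4 is the only member with a positive slope, and the intervals of WT and Il21r-/- overlap for every gene.

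Whether the slope depended on genotype was tested by the genotype by day interaction, which called 0 of 7 members and 0.0% of all genes, with an unadjusted p under 0.05 for 0 members and 118 genes. DESeq2 called 0 genes. The widest difference was that of Cxcr5, with -0.117 per day in WT and -0.049 in Il21r-/- (difference -0.07, interval -0.17 to 0.04). The slope of each genotype was taken from the interaction fit to all 6 libraries. It gave 2 calls over all genes in WT and 0 in Il21r-/-, and 0 of 7 members in either.

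The ratio of Cxcr4 to Cxcr5, taken from RPKM within a library, was 1.01, 1.26 and 2.18 in WT and 1.04, 1.07 and 1.84 in Il21r-/- on days 7, 10 and 14. It was highest on day 14 in both genotypes, and the genotype groups overlapped. Zone markers were compared beside these receptors because the sorted cells hold both zones. Of 6 LZ markers, 2 passed over 3 days, Cd83 (log2 fold change -0.93, adjusted p = 0.00669) and Cd40 (-0.53, adjusted p = 0.0164, edgeR), both higher in Il21r-/-. Of 6 DZ markers 0 passed, with 4 at an unadjusted p under 0.05. With day as a block, 4 LZ markers were higher in Il21r-/-, and among the DZ markers Ccnb1, Plk1 and Aurka were higher in WT and Foxp1 in Il21r-/-. The summed level of the 6 LZ markers was 878 to 1136 CPM in WT and 1476 to 1727 CPM in Il21r-/-, without overlap. Cd83 and Cd86 had the highest levels in that sum, while Icam1 was higher in WT on days 7 and 10. The sum of the 6 DZ markers was 1679 to 1802 CPM in WT and 1406 to 1680 CPM in Il21r-/-, with overlap. Cxcr4, Cxcr5 and S1pr2 passed in neither fit, with S1pr2 at an adjusted p of 0.0504 with day as a block (edgeR). They were not tested against these markers, and the part of zone makeup in any member's level was not tested.

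Cxcr5 and Gnai2 had the widest range of log2 CPM over the 6 libraries. The genes whose log2 CPM was most like that of Cxcr5 were Skil (Pearson's r = 0.988), Cdipt (0.987) and Susd6 (0.986). For Gnai2 they were Iba57 (r = 0.9995), Efr3a (0.999) and Il17ra (0.995). These are the highest correlations among tested genes with a symbol, which 207 of the 11005 lacked. They come from 6 libraries that share their days, and are given as a description.

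Around these members, 87 further genes of S1P signalling, G proteins, RhoA signalling and migration were examined, of which 74 were tested. The list was chosen with earlier results of these data known. Its shares beside those of all genes, here and below, are a description and cannot show an excess. Over 3 days 12 passed, 11 higher in Il21r-/- (against 4.52% of all genes in that direction) and 1, Cxcr3, higher in WT. The list's median log2 fold change was -0.05, beside -0.01 over all genes. With day as a block 22 of 74 passed (29.7%, beside 22.9% of all genes), 19 of them higher in Il21r-/- (25.7%, beside 13.6%). Leaving out 1 library ended none of the calls of Gpr183, Ccr7, S1pr1 and Gnb4, whereas leaving out WT day 14 ended those of the other 8, and Grk5 and Sgpp2 each lost their call in 5 of 6 such fits.

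**Figure D3:**
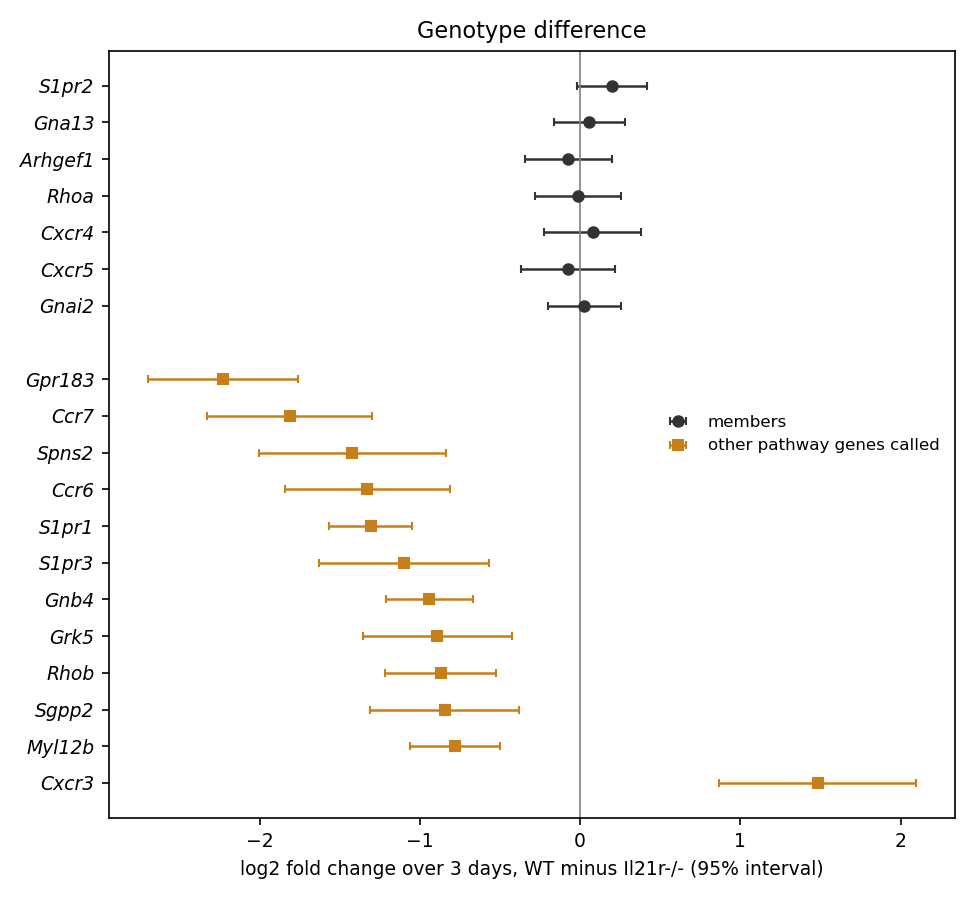
Log2 fold change over 3 days, WT minus Il21r-/- (x axis), with 95% intervals from edgeR's quasi-likelihood fit, for the 7 members (black circles) and the 12 other pathway genes that passed (orange squares). All 7 member intervals cross 0, 11 pathway genes lie below 0 and Cxcr3 lies above.

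S1pr1, S1pr3 and S1pr4 were higher in Il21r-/- on each day, whereas S1pr2 was higher in WT on each day and did not pass. S1pr1, which drives egress toward S1P, had 17.8, 14.6 and 9.79 CPM in WT and 48.6, 35.0 and 22.6 in Il21r-/- on days 7, 10 and 14, without overlap. Its log2 fold change was -1.31 (SE 0.11, adjusted p = 0.000784), it was called on each of the 3 days, and it stayed past the threshold under every alternative run for that comparison. S1pr3 had 57.2, 29.0 and 24.7 CPM in WT and 66.4, 91.9 and 66.5 in Il21r-/- (-1.10, SE 0.23, adjusted p = 0.0318), a call that was lost with day as a block (adjusted p = 0.265) and with all genes of any count kept. S1pr4 was higher in Il21r-/- on each day (71.5, 37.1 and 33.1 CPM against 87.3, 56.8 and 41.8) and passed with day as a block (-0.41, adjusted p = 0.00136) but not with day as a linear term.

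Per length, S1pr2 was the most abundant S1P receptor in every library. The ratio of S1pr2 to S1pr1, from RPKM, was 37.6, 40.8 and 51.2 in WT and 11.6, 14.1 and 21.1 in Il21r-/- on days 7, 10 and 14, without overlap between genotypes. S1pr5 had at most 0.04 CPM in any library. Of the genes for S1P handling, the exporter Spns2 (-1.42, adjusted p = 0.0140) and the phosphatase Sgpp2 (-0.85, adjusted p = 0.0481) were higher in Il21r-/- at low levels of at most 2.75 and 12.9 CPM. The call of Sgpp2 was lost with a minimum of 10 counts in every library.

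Gpr183, the EBI2 receptor that guides cells toward the outer follicle, had 14.5, 5.37 and 4.78 CPM in WT and 48.7, 39.8 and 21.7 in Il21r-/- on days 7, 10 and 14 (-2.23, SE 0.21, adjusted p = 0.00101). Ccr7, the receptor for T zone chemokines, had 3.26, 1.59 and 2.11 CPM in WT and 10.3, 8.50 and 5.78 in Il21r-/- (-1.81, SE 0.23, adjusted p = 0.00322). Neither gene's groups overlapped, whereas those of Ccr6 and Cxcr3 did. Ccr6 was higher in Il21r-/- on each day (9.89, 3.21 and 1.78 CPM against 16.9, 10.9 and 5.70, -1.33, adjusted p = 0.0121). Cxcr3, the receptor for interferon-induced chemokines, went the other way (4.21, 1.42 and 0.562 CPM in WT and 1.48, 0.571 and 0.161 in Il21r-/-, 1.48, adjusted p = 0.0145), from as few as 4 counts.

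**Figure D4:**
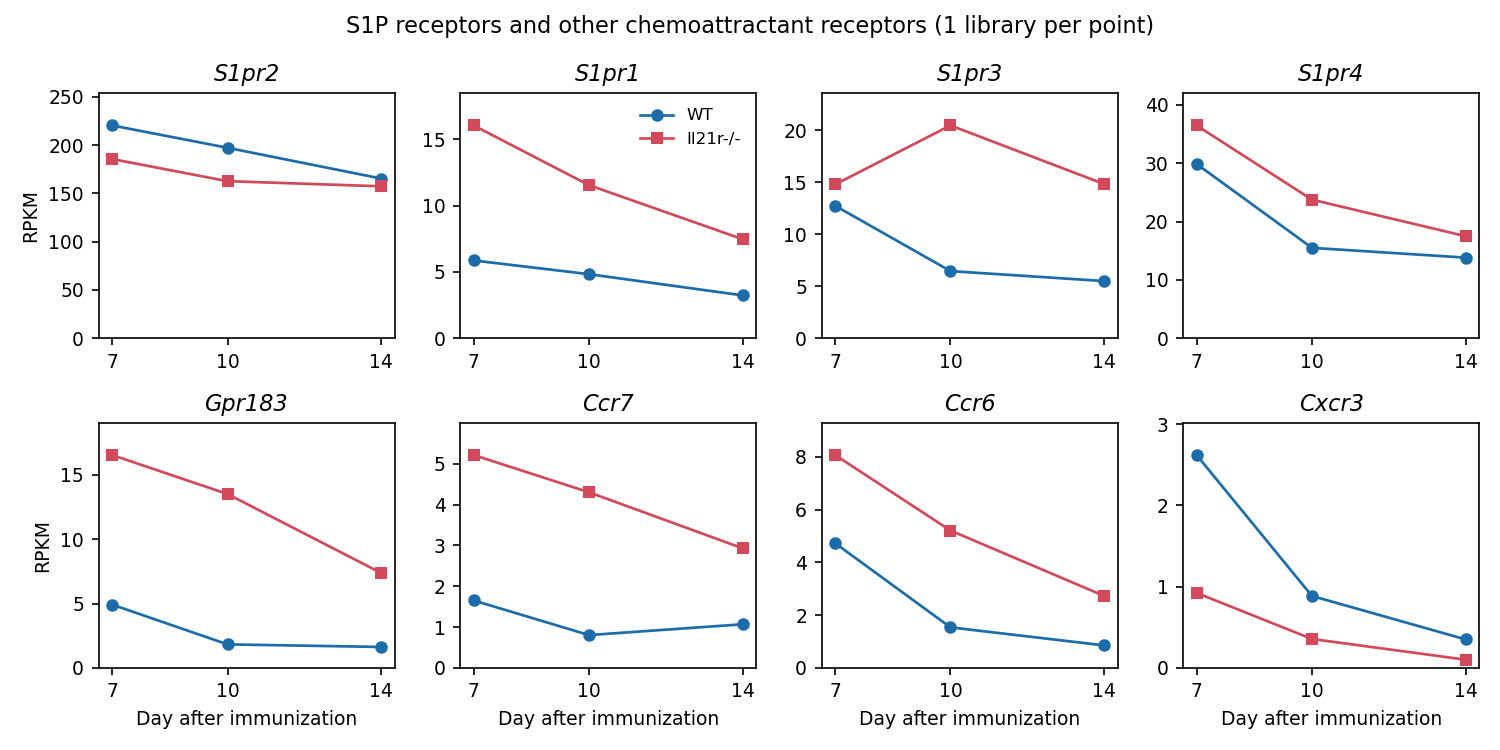
RPKM (y axis, from 0, scale per panel) of 4 S1P receptors and 4 other chemoattractant receptors against day after immunization, 1 library per point, WT as blue circles and Il21r-/- as red squares. S1pr1, S1pr3, Gpr183 and Ccr7 are higher in every Il21r-/- library than in every WT library. S1pr4 and Ccr6 are higher in Il21r-/- and Cxcr3 in WT on each day, with overlap between the genotypes. S1pr2 lies on a far higher scale with a small difference.

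S1pr1 and Ccr7 are also on a list of 9 naive and memory B cell markers, of which 6 passed over 3 days. Fcer2a, Ccr7, Klf2 and S1pr1 were among the 5 higher in Il21r-/-, and Ighm was higher in WT. On day 7 Ighd, Cr2 and Cd38 were lower in Il21r-/- as well, at 78.4%, 78.1% and 80.2% of WT. On days 10 and 14 they were higher in Il21r-/-. The summed level of the list was 567 to 1233 CPM in WT and 949 to 1479 CPM in Il21r-/-. Ighd had 21 to 44 counts a library and Cd38, the marker used to gate these cells out, 49 to 725. Much higher were Ighm at 5408 to 13247 counts, Fcer2a at 3292 to 20720 and Cr2 at 2609 to 7445. The sort had excluded cells with IgM. Of 4 plasma cell markers tested 2 passed, Prdm1 higher in WT (1.39 to 1.83 CPM against 0.262 to 0.682, adjusted p = 0.0216) and Xbp1 higher in Il21r-/- (198 to 235 CPM in WT against 268 to 305, adjusted p = 0.0396, edgeR), and all 4 passed with day as a block. The part of such cells in the receptor differences was not tested.

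The calls over 3 days in the groups below stand beside 5.92% of all genes tested (651 of 11005). Closer to the members, Gα and RhoGEF genes showed 0 of 7 calls over 3 days (1 at an unadjusted p under 0.05), including Gna12. Among 9 RhoA-related GTPases and their regulators tested, Rhob, an early response relative of Rhoa, was the 1 call (5.29 to 7.18 CPM in WT and 10.7 to 12.5 in Il21r-/-, -0.87, adjusted p = 0.0132). Among 12 RhoA effectors, Myl12b, a myosin regulatory light chain, was the 1 call (111 to 150 CPM in WT and 198 to 229 in Il21r-/-, -0.78, adjusted p = 0.00909). Its near-identical neighbour Myl12a did not pass (-0.12, adjusted p = 0.654), and because the treatment of reads that match both paralogs is not given in the sources used here, both values are uncertain. Of 13 other G protein subunits, Gnb4 passed (39.7 to 51.8 CPM in WT and 84.4 to 94.5 in Il21r-/-, -0.94, adjusted p = 0.00360), and of 5 receptor kinases and arrestins, Grk5 passed (-0.89, adjusted p = 0.0396). Among 14 genes of the Rac and Cdc42 migration machinery 0 passed, with 3 at an unadjusted p under 0.05.

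With day, 9 of the 74 pathway genes passed and all 9 fell (against 3.36% of all genes). They were the receptors S1pr1 (slope -0.14 log2 units per day), S1pr4 (-0.15), Ccr6 (-0.28), Cxcr3 (-0.43) and Gpr183 (-0.20), the G protein subunits Gna15 (-0.22) and Gng2 (-0.08), the RhoA regulator Arhgap1 (-0.12), and Pik3cg (-0.17), the kinase PI3Kγ that chemoattractant receptors activate. The call of Gng2 was lost with DESeq2-style size factors. Without the WT day 7 library 0 of the 9 calls remained, as was so for all genes, and without WT day 14 likewise 0 pathway genes passed. The 9 naive and memory B cell markers, S1pr1 among them, also all had slopes under 0 with day, and 5 passed. Their summed level went from 1233 CPM on day 7 to 567 on day 14 in WT, and from 1479 to 949 in Il21r-/-. The part of such cells in the falls with day was not tested.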

How the data were processed

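The authors aligned single-end reads of 6 libraries to mm10 with Rsubread after base calling with CASAVA 1.8.2, assigned them to genes by featureCounts using its own RefSeq gene models, and summed technical replicates. The deposited values are raw whole-number counts per gene. The table and the 6 single-library files were identical. Symbols were matched by Entrez identifier for 25275 genes from RefSeq and 18 from GENCODE, and 1886 had none. Left out were genes with an average log2 CPM under 0, Ig variable genes, Xist and Y genes, leaving 11005. TMM factors, dispersions (robust, additive genotype and linear day) and tests came from edgeR 4.0.16 in R 4.3.3. Day-wise effects used the likelihood ratio test with a mean per day, and the effects over 3 days, of day and of their interaction used the quasi-likelihood test. P-values were adjusted by Benjamini-Hochberg over all 11005 genes, with a threshold of 0.05. Log2 CPM had a prior count of 2. Intervals use the t distribution of the fit in the quasi-likelihood tests and the normal distribution in the day-wise tests, and cover the spread around the model. The libraries of a day deviated together after genotype means were removed (r = 0.640, 0.413 and 0.645 across genes on days 7, 10 and 14), so day as a block was one alternative. Others were DESeq2 1.42.0, other size factors, filters and models, and leaving out each library. The test scripts were checked on simulated data. The members and the pathway and marker lists were chosen with earlier results of these data known. Named genes were all 7 members, every pathway gene called over 3 days or with day, Il21r, and the zone and cell type markers. For the 2 members with the widest range, the 3 most correlated genes with a symbol were named too. S1pr4, S1pr5, Gna12 and Myl12a were named after their values were seen.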

Additional observations from a re-analysis of the deposited data

How the results depend on the processing

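The count of members that differed between genotypes stayed at 0 over 3 days, on each day and in the interaction under every alternative run, including the replicate block. Counts over all genes were less stable. Over 3 days 651 genes passed, 991 with all genes of any count, 1193 with the likelihood ratio test and 2519 with the replicate block (22 pathway genes against 12). Leaving out 1 library gave 132 (without WT day 14) to 2165 (without Il21r-/- day 10) genes and 4 to 24 pathway genes. On day 10, 341 genes passed and 722 with a linear day term kept (13 pathway genes against 7). Without 1 library, day 7 gave 104 to 220 calls and day 14 341 to 704, and the interaction 0 to 12. With day, 488 genes passed, 869 with any count and 870 with DESeq2. The slopes of each genotype from the interaction fit gave 2 in WT and 0 in Il21r-/-. Leaving out 1 library gave 0 (without WT day 7) to 2177 (without Il21r-/- day 10). Members called with day were 1, but 0 with DESeq2-style size factors, with a minimum of 10 counts and for the slope of either genotype. They were 2 with any count and with DESeq2, and 0 to 3 without 1 library. Pathway genes were 9, but 0 for the slope of either genotype and 0 to 25 without 1 library.

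Leaving out 1 library turned the sign of member differences that had not passed. Over 3 days their ranges were -0.149 to 0.0368 for Arhgef1, -0.0832 to 0.202 for Cxcr4, -0.242 to 0.000414 for Cxcr5, -0.00602 to 0.125 for Gna13, -0.00480 to 0.0445 for Gnai2 and -0.0890 to 0.0855 for Rhoa, and -0.0328 to 0.00110 per day for the slope of Rhoa. The causes were not tested. The members had at least 5363 counts in every library.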
